A study of Mus musculus with 29 samples.

Results

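The genes described are 9 genes of the kidney proximal tubule, chosen by name for their roles in protein endocytosis and in metabolism: Lrp2, Cubn, Dab2, Fbp1, Pck1, G6pc, Miox, Acmsd and Kap. All 9 were present in the table of 13982 genes. RNA had been measured in 14 libraries of (NZBxNZW)F1 mice, a cross that develops lupus nephritis without any transgene or treatment. From proteinuric mice there were 4 kidney libraries (mice H6, H20, H115 and H117, aged 39, 36, 25 and 32 weeks), 3 libraries of tertiary lymphoid structures (TLS, of mice H6, H20 and H115) and 3 lymph node libraries (mice H6, H20 and H117). There were also 3 lymph node libraries of anti-dsDNA antibody-positive mice (D10, D11 and L25, aged 28, 29 and 18 weeks) and 1 of a young mouse (C45, aged 4 weeks). The TLS were cut out of the kidney by hand under a loupe and the kidney sample came from the rest of the same organ, so a TLS sample holds whatever kidney tissue was taken along with it. The antibody-positive lymph nodes differed from all other samples in the kit used for RNA isolation, and that kit and the group cannot be told apart.

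The proximal tubule takes back most of what the glomerulus filters. Its cells draw filtered proteins out of the tubule fluid through the large receptors megalin (Lrp2) and cubilin (Cubn), with the adaptor Dab2 inside the cell. They are also a site of glucose synthesis in the body, of inositol breakdown (Miox) and of one branch of tryptophan breakdown (Acmsd), and in the mouse they make the androgen-regulated protein Kap. Lymph nodes have no tubules.

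Each library held between 343825 and 443379 reads, and a gene with 3 reads had a normalised read count between 2.36 and 5.33. In the normalised read count, 1 is added to the reads of a gene and the sum is scaled by a size factor of the library, so that a gene with no read is listed at about 1. Ribosomal RNA genes took 55.6% of the reads of the H117 kidney, 31.8% of the H6 lymph node, 21.3% of the H115 TLS and at most 5.33% of any other library. The labelled tissues carried their defining genes. The summed value of 6 B-cell genes was 6.95 to 28.7 in kidney, 333 to 494 in TLS and 594 to 1232 in the 7 lymph nodes, and that of 5 thick ascending limb genes 814 to 3234 in kidney and 622 to 1350 in TLS, while all 5 were without a read in the lymph nodes. In bulk tissue of this kind, fewer cells of a type and less RNA per cell cannot be told apart.

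The first question was how far the proximal tubule genes of the kidney were present in the TLS. Every one of the 9 genes was lower in TLS than in the kidney of the same mouse in 3 of 3 mice. The share of all genes that did so was not counted. With 3 mice the exact sign-flip p of each of the 9 was 0.25 (two-sided), the smallest this test can give. In a fit of the 10 libraries of proteinuric mice, 5 of the 9 genes (Dab2, Fbp1, G6pc, Miox and Acmsd) were lower in TLS by limma after Benjamini-Hochberg adjustment (threshold 0.05), with a background of 6.07% of the 7382 genes tested being called higher in kidney. Lrp2, Cubn, Pck1 and Kap did not pass. With the mouse as a replicate block, 8 of the 9 passed and only Kap did not (background 7.80%). The block fits a term for each mouse that its kidney, TLS and lymph node libraries share. It is therefore not a comparison of kidney and TLS of the same animal alone. The median log2 difference of the 9 genes was 1.85 without and 2.15 with the block, and the median of all genes tested was 0.01 and 0.07. Without the H115 TLS library 9 genes passed, with 634 of 7372 genes tested called higher in kidney. Without the H115 kidney 3 did (211 of 7297), and without the H6 TLS library 3 did (146 of 7398). The calls over all genes thus moved in the same direction.

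**Figure D1:**
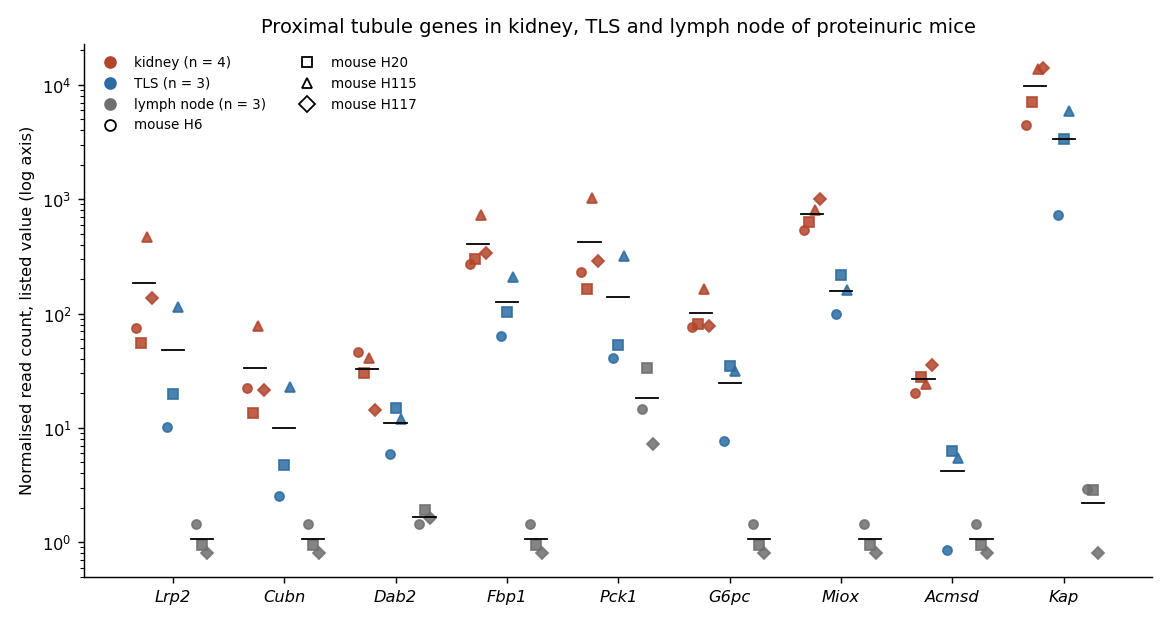
Normalised read count (listed value, log axis) of the 9 genes in each kidney, TLS and lymph node library of proteinuric mice, with symbols for the mice and a bar at each group mean. All TLS points lie below the kidney point of the same mouse, and 8 of the 9 genes lie at the level of 0 to 2 reads in the lymph nodes.

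Lrp2 (ENSMUSG00000027070, GRCm38 chr2:69424340-69586065, minus strand) encodes megalin, the receptor that binds filtered albumin, vitamin carriers and hormones. Its normalised read count in kidney was 74.3 in mouse H6, 55.7 in H20, 468 in H115 and 137 in H117. In TLS it was 10.2 in H6, 19.6 in H20 and 113 in H115. Mouse H115 stood far above the other mice in both tissues, and its TLS lay above the kidneys of H6 and H20. The mean was 184 ± 193 (SD, n = 4) in kidney and 47.7 ± 57.1 (SD, n = 3) in TLS, a log2 difference of 2.11 ± 0.82 (SE) with an adjusted p of 0.113 in limma. With the mouse as a block the difference was 2.24 ± 0.40 and the adjusted p 0.00377. The call changed with the smaller error of the fit with the block, while the size of the difference moved by less than that error.

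Cubn (ENSMUSG00000026726, chr2:13276338-13491813, minus strand) encodes cubilin, which has no membrane anchor of its own and is taken up together with megalin. Kidney values were 22.1, 13.5, 77.7 and 21.3 in H6, H20, H115 and H117, and TLS values 2.54, 4.72 and 22.9 in H6, H20 and H115. The pattern over the mice was that of Lrp2, with H115 again the highest in both tissues. The H6 TLS held 2 reads of Cubn and the H20 TLS 5, so that the shares of this gene are coarse. The log2 difference of 1.82 ± 0.65 (SE) had an adjusted p of 0.0878 in limma, and 0.00396 with the mouse as a block (1.99 ± 0.36). The ratio of Lrp2 to Cubn values within a library lay between 3.36 and 6.42 in all 7 kidney and TLS libraries.

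Dab2 (ENSMUSG00000022150, chr15:6299788-6440712, plus strand) encodes an adaptor that links both receptors to the clathrin coat, and it is also made outside the tubule, macrophages included. Its kidney values were 46.0, 30.4, 40.6 and 14.2 in H6, H20, H115 and H117, and the last rested on 7 reads. TLS values were 5.94, 14.9 and 11.99 in H6, H20 and H115. Here H115 did not stand apart, and the highest TLS value exceeded the lowest kidney value. The log2 difference was 1.46 ± 0.41 (SE) with an adjusted p of 0.0311 in limma. The call was lost without the H6 kidney (adjusted p = 0.0789), the H20 kidney (0.0534), the H115 kidney (0.0919) or the H6 TLS (0.155), and with only the kidney and TLS libraries in the fit (0.0719). The ratio of Lrp2 to Dab2 was 1.61 and 1.83 in the kidneys of H6 and H20 and 11.5 and 9.63 in those of H115 and H117. The summed value of 8 macrophage genes was 103 to 389 in kidney and 395 to 946 in TLS, highest in the H6 TLS. C1qa (mean 74.9 in kidney, 262 in TLS) and C1qb (80.0 and 248) made most of it. Of 7 tested, only these 2 were called higher in TLS (limma, background 8.62%). Csf1r was at 26.4 and 31.7, and Mertk was lower in TLS (10.5 and 7.81). The part of macrophages in the Dab2 values was not tested.

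Fbp1 (ENSMUSG00000069805, chr13:62864753-62888282, minus strand) encodes fructose-1,6-bisphosphatase, which catalyses a committed step of glucose synthesis. Kidney values were 270, 303, 727 and 339 in H6, H20, H115 and H117, and TLS values 63.6, 103 and 210 in H6, H20 and H115. No TLS library reached the lowest kidney. The log2 difference was 1.75 ± 0.45 (SE), a 3.36-fold difference on the scale of log2(value + 1), with an adjusted p of 0.0215 in limma. It missed the threshold without the H115 kidney (adjusted p = 0.0557), without the H6 TLS (0.117) and without the H20 TLS (0.0722), as well as with only kidney and TLS in the fit (0.0543) and in edgeR's quasi-likelihood test (0.121).

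Pck1 (ENSMUSG00000027513, chr2:173153048-173159273, plus strand) encodes the cytosolic phosphoenolpyruvate carboxykinase, the entry step of glucose synthesis from lactate and amino acids. In kidney its value was 233, 163, 1019 and 286 in H6, H20, H115 and H117, and in TLS 40.7, 53.4 and 322 in H6, H20 and H115. The TLS of H115 lay above the kidneys of the other 3 mice, while within each mouse the kidney was higher. For Lrp2 it lay above the kidneys of H6 and H20 but not that of H117. The log2 difference of 1.85 ± 0.80 (SE) had an adjusted p of 0.147 in limma, and 0.0124 with the mouse as a block (2.15 ± 0.49).

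G6pc (ENSMUSG00000078650, chr11:101367561-101377903, plus strand) encodes the catalytic subunit of glucose-6-phosphatase, which releases free glucose. Its kidney values were 76.9, 81.0, 165 and 78.1 in H6, H20, H115 and H117, so 3 kidneys lay within a narrow range. TLS values were 7.63, 34.6 and 31.6 in H6, H20 and H115, with the H6 TLS far below the other two. The log2 difference was 2.15 ± 0.48 (SE) with an adjusted p of 0.00949 in limma, and 0.0647 in edgeR's quasi-likelihood test.

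The bases before the start sites of Pck1 and G6pc are shown because the 9 genes were searched for the short letters that mark binding sites of proximal tubule regulators. The sequences are those of RefSeq on GRCm38.p6, from 250 bases before to the last base before the start, 5′ to 3′ on the strand of the gene (plus for both), at chr2:173152823-173153072 for Pck1 and chr11:101367466-101367715 for G6pc. The gene positions printed above for Pck1 and G6pc come from GENCODE and begin inside these windows. Some of the bases shown thus lie within the GENCODE gene. Capitals mark matches, on either strand, to a motif of HNF1, to the end of an HNF4 site and to the TATA box, whose letters are given after the sequences.
Pck1: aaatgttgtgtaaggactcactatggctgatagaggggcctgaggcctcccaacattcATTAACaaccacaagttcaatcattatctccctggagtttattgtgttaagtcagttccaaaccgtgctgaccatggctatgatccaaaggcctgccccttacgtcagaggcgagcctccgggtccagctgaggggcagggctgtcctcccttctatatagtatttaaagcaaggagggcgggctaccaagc
G6pc: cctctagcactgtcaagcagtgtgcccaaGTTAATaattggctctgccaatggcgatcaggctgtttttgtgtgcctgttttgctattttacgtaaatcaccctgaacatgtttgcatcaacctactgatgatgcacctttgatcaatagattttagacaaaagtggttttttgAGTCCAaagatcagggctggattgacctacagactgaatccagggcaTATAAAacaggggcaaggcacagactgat
Searched on both strands from 250 bases before to 50 after the start, the HNF1 motif GTTAAT was found in promoters of 4 of the 9 genes (Pck1, G6pc, Miox and a second start of Dab2), and in 7.10% of all 32851 promoters. The end of the HNF4 site, searched as AGTCCA, was found in 5 (Cubn, Kap, G6pc, Fbp1 and the second start of Dab2; 14.1% of all promoters) and the TATA box, searched as TATAAA, in 3 (Kap, G6pc and Miox; 13.6%). The steroid receptor motif AGAACA and the full cyclic AMP response element, searched as TGACGTCA, were found in none of the 9, and in 19.0% and 1.79% of all promoters. Only exact letters were searched. The Pck1 sequence holds ttacgtca, a near match to the cyclic AMP response element that was not counted. The letters are a description of these windows. Whether a factor was bound there was not measured.

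Miox (ENSMUSG00000022613, chr15:89334398-89337015, plus strand) encodes myo-inositol oxygenase, the first enzyme of inositol breakdown and a gene made almost wholly in the proximal tubule. Kidney values were 543, 635, 807 and 1012 in H6, H20, H115 and H117, the second smallest relative spread of the 9 genes (CV 27.6%). In TLS they were 98.4, 218 and 159 in H6, H20 and H115. The groups were far apart, and the log2 difference of 2.27 ± 0.37 (SE) had an adjusted p of 0.00152 in limma. Unlike Lrp2, Miox did not set H115 apart in either tissue. The ratio of Lrp2 to Miox was 0.580 in the kidney and 0.712 in the TLS of H115, and between 0.0880 and 0.137 in the other 5 kidney and TLS libraries. The 250 bases before its RefSeq start (chr15:89334223-89334472, plus strand, capitals as above) hold the HNF1 motif on the other strand and a TATA box. The GENCODE position of Miox also begins inside this window.
Miox: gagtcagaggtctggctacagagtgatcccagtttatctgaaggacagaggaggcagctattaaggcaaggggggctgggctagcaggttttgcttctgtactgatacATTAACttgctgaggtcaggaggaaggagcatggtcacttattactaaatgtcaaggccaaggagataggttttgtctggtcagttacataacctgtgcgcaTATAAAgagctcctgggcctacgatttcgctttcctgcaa

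Acmsd (ENSMUSG00000026348, chr1:127729413-127767978, plus strand) encodes an enzyme that diverts a tryptophan product away from NAD synthesis. It was the least variable of the 9 genes among kidneys, with values of 20.3, 27.8, 24.3 and 35.5 in H6, H20, H115 and H117 (CV 23.9%). In TLS it had 0, 7 and 4 reads in H6, H20 and H115, listed as 0.848, 6.29 and 5.45. The log2 difference was 2.63 ± 0.44 (SE) with an adjusted p of 0.00180 in limma. No read in the H6 TLS allows up to 9.42% of the mean kidney value, taking 3 reads as the limit.

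Kap (ENSMUSG00000032758, chr6:133849851-133853762, minus strand) encodes a small kidney protein under androgen control. It was the most abundant of the 9 genes, with 4482, 7074, 13668 and 13990 in the kidneys of H6, H20, H115 and H117 and 732, 3361 and 5910 in the TLS of H6, H20 and H115. In both tissues H6 was the lowest library, and the H115 TLS lay above the H6 kidney. The log2 difference of 1.85 ± 0.68 (SE) had an adjusted p of 0.0923 in limma, and 0.0502 with the mouse as a block (1.92 ± 0.60). Counting error is negligible at this depth, with at least 862 reads of Kap in each kidney or TLS library.

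Levels can be compared between genes only per length. Per kilobase of exon, the mean kidney value was 13866 for Kap, 454 for Miox, 241 for Fbp1, 124 for Pck1, 41.5 for G6pc, 11 for Lrp2, 9.54 for Acmsd, 4.46 for Dab2 and 2.25 for Cubn. Of the neighbours in this order, Kap and Miox, G6pc and Lrp2, and Acmsd and Dab2 did not overlap among the 4 kidneys, and the other 5 neighbouring pairs did. Lrp2 was above Acmsd in only 1 of the 4 kidneys.

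The kidneys differed among themselves. The CV between the 4 kidney libraries had a median of 48.6% over the 9 genes (from 23.9% for Acmsd to 105% for Lrp2), next to 43.9% over the 621 genes whose kidney mean exceeded the lymph node mean 10-fold or more, a set that holds all 9. The H115 kidney was the highest of the 4 for 5 genes, the H117 kidney for 3 and the H6 kidney for 1. Over the mean of the other 3 kidneys, H115 was 5.27-fold higher for Lrp2, 4.49-fold for Pck1 and 4.09-fold for Cubn, then 2.39-fold for Fbp1, 2.09-fold for G6pc, 1.61-fold for Kap and 1.34-fold for Dab2, while Miox (1.11) and Acmsd (0.873) were near the other mice. Within TLS the same 3 genes led, with 7.60-fold for Lrp2, 6.83-fold for Pck1 and 6.31-fold for Cubn over the mean of the other 2 TLS libraries, and Miox (1.01) was again at the level of the others. H115 was the youngest of the proteinuric mice at 25 weeks. The summed value of 5 tubular injury genes was 12777 and 9968 in the kidneys of H6 and H20 and 853 and 421 in those of H115 and H117. Spp1 was by far the largest of the 5. Its kidney mean was 5461, next to 259 for Clu, 229 for Havcr1, 42.4 for Lcn2 and 13.6 for Krt20. Whether age or injury had a part in these differences was not tested.

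**Figure D2:**
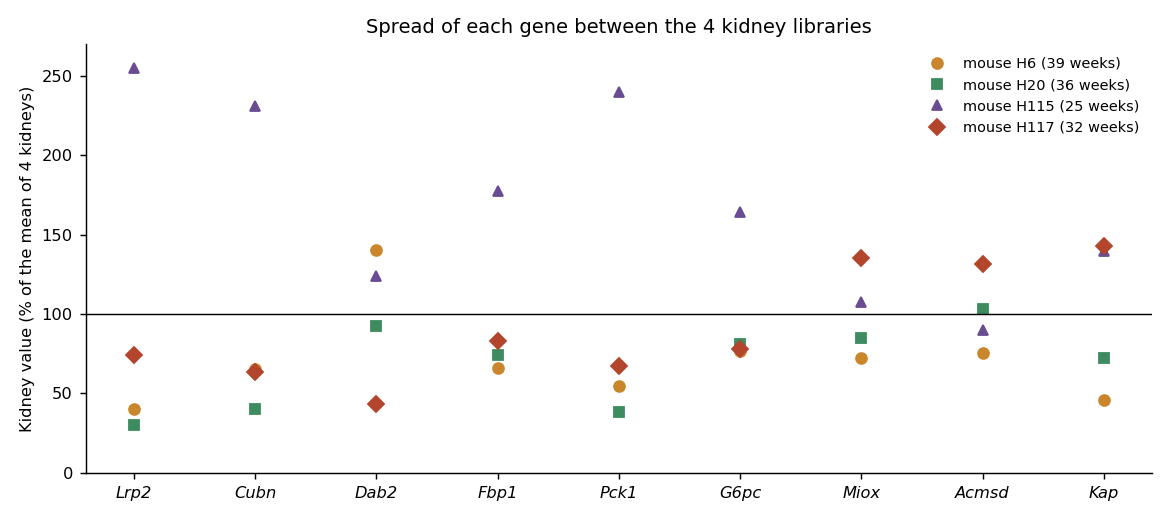
Each kidney value as a percentage of the mean of the 4 kidney libraries, for the 9 genes, with a symbol for each mouse. H115 lies far above the line at 100% for Lrp2, Cubn and Pck1 and near it for Miox and Acmsd.

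How much of the kidney level remained in TLS depended on which kidney was the reference. Against the mean of the 4 kidneys, the median share of the 9 genes was 7.62% in the H6 TLS, 25.1% in the H20 TLS and 51.4% in the H115 TLS, with an SD of 22.0 percentage points between the 3 libraries. Against the kidney of the same mouse it was 13.7%, 34.9% and 29.0%, with an SD of 11 points. The H6 TLS was the lowest of the 3 for 9 of 9 genes by either reference. The order of H20 and H115 changed: H115 was the highest TLS for 5 genes and H20 for 4 against the kidney mean, whereas H20 was the highest for all 9 against its own kidney. For Lrp2 the shares against the kidney mean were 5.54%, 10.7% and 61.7% in H6, H20 and H115, and 13.7%, 35.3% and 24.2% against the same mouse. For Pck1 they were 9.58%, 12.6% and 75.7%, and 17.5%, 32.8% and 31.6%. For Miox, which varied little among kidneys, both references gave similar values, 13.1%, 29.1% and 21.3% against the mean and 18.1%, 34.3% and 19.7% against the same mouse.

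Within a TLS library the genes did not all sit at one share. In the H6 TLS the share of the same mouse ranged from 4.17% for Acmsd to 23.6% for Fbp1, in the H20 TLS from 22.6% for Acmsd to 49.2% for Dab2, and in the H115 TLS from 19.2% for G6pc to 43.2% for Kap. Some of this range was larger than counting error. In the H115 TLS, Kap reads were 43.2% of those of the kidney after scaling (95% exact interval 41.9 to 44.7) and Miox reads 19.6% (16.3 to 23.5). In the H6 TLS, Fbp1 reads were 23.3% (17.9 to 30.2) and Kap reads 16.3% (15.2 to 17.5). The 0 reads of Acmsd in the H6 TLS against 22 in its kidney have an interval that reaches 17.5% and so overlap with Kap. These intervals cover counting error in 1 pair of libraries and no difference between mice.

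**Figure D3:**
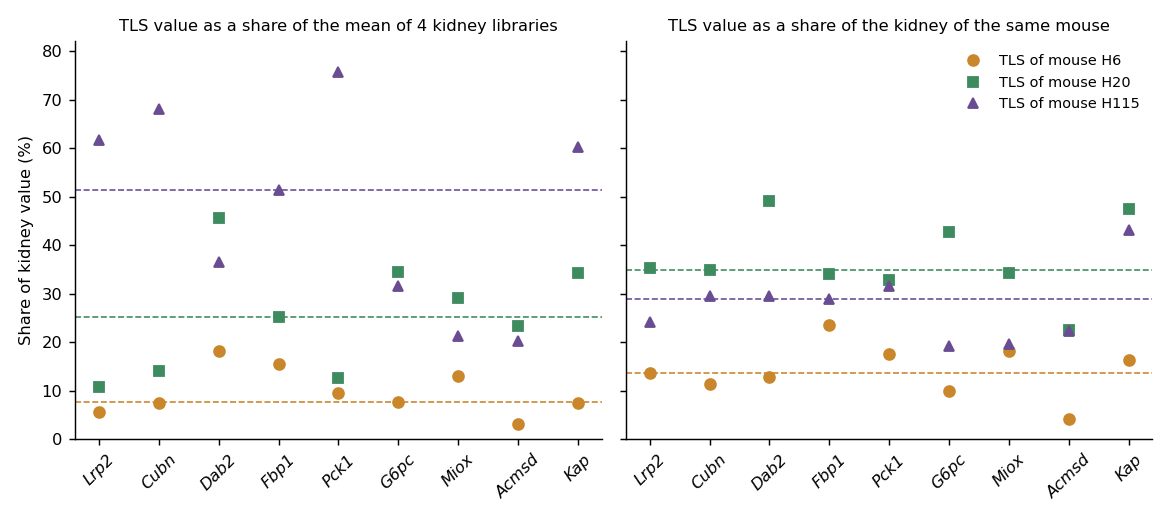
Value of each gene in TLS as a share (%) of the mean of 4 kidney libraries (left) and of the kidney of the same mouse (right), with dashed lines at the median of each TLS library. The medians are 7.62%, 25.1% and 51.4% on the left and 13.7%, 34.9% and 29.0% on the right for H6, H20 and H115.

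Genes of other nephron segments were taken as a comparison. The median share of the kidney mean for 4 thick ascending limb genes was 26.6%, 38.4% and 110% in the TLS of H6, H20 and H115, above the 9 proximal genes in 3 of 3 libraries, by 30.4 points on average (SD 24.9, exact sign-flip p = 0.25, two-sided). For 8 genes of the distal tubule and collecting duct it was 43.5%, 51.7% and 47.2%, above the proximal genes in H6 and H20 and below in H115 (mean difference 19.4 points, SD 21.0, exact sign-flip p = 0.5, two-sided). The direction in H115 turned with the reference: against the kidney of the same mouse the distal list was at 84.2%, 37.6% and 39.9%, above the proximal genes in 3 of 3 libraries (mean difference 28.0 points, exact sign-flip p = 0.25, two-sided). With 3 TLS libraries the smallest p of this test is 0.25, so neither difference could pass 0.05. Within the distal list the shares were uneven, with 264%, 111% and 82.1% for Aqp2, the water channel of the collecting duct, and 17.8%, 18.1% and 27.3% for Slc12a3, the cotransporter of the distal tubule. The 14 other proximal tubule genes had median shares of 10.4%, 23.0% and 40.4%, and the set of 621 kidney genes named above 18.0%, 29.0% and 54.3%. In the same libraries the summed value of 5 urothelial genes was 8.88 to 16.2 in kidney and 265, 88.8 and 550 in the TLS of H6, H20 and H115. The part of where a TLS was cut out in these shares was not tested.

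**Figure D4:**
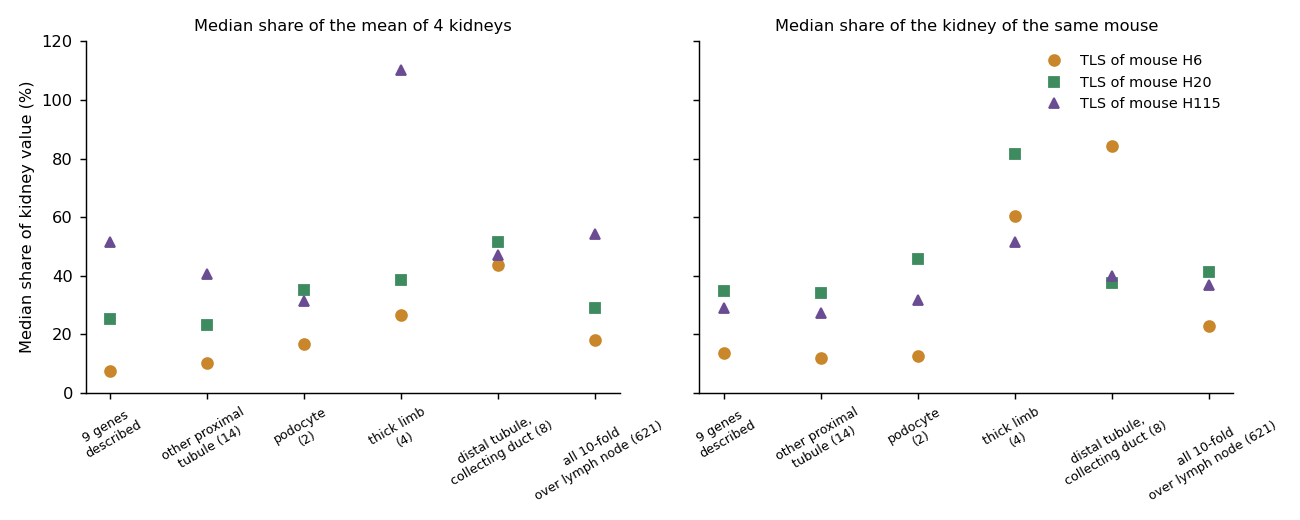
Median share (%) of the kidney value in each TLS library for the 9 genes and 5 other sets of genes, with the number of genes in brackets, against the mean of 4 kidneys (left) and the kidney of the same mouse (right). The thick limb set lies above the 9 genes in each TLS library on both sides.

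The other genes of the same pathways were counted from lists. Of 12 endocytosis genes tested beside the members, 5 were higher in kidney than in TLS (Amn, Pdzk1, Folr1, Lrpap1 and Myo6), none was called lower (background 6.07% of all genes higher and 8.62% lower in kidney, for this and the lists that follow), and 7 did not pass, with a median log2 difference of 1.18 against 0.01 over all genes. With the mouse as a block 6 of the 12 passed (background 7.80%). Amn, the membrane anchor of cubilin, was at 27.0 to 46.1 in kidney and 3.39 to 13.1 in TLS (log2 difference 2.30 ± 0.38 SE, adjusted p = 0.00173 in limma). Pdzk1, a scaffold of brush border transporters, was at 136 to 471 and 24.6 to 144 (2.10 ± 0.58, 0.0295), and Folr1, the folate receptor, at 112 to 229 and 22.0 to 68.7 (1.84 ± 0.40, 0.00820).

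Of 13 other genes of glucose synthesis, 2 were higher in kidney and 11 did not pass, with a median log2 difference of 0.85, while with the mouse as a block 5 of the 13 passed. Slc37a4, the glucose-6-phosphate transporter that works with G6pc, was at 32.1 to 125 in kidney and 10.2 to 28.3 in TLS (1.77 ± 0.46 SE, adjusted p = 0.0221 in limma). Of 9 inositol and glucuronate genes, 4 were higher in kidney (Xylb, Cryl1, Dcxr and Akr1a1) and 5 did not pass (median 1.17), and with the block 5 of the 9 passed. The largest was Xylb, the xylulose kinase at the end of the Miox pathway, at 38.0 to 82.3 in kidney and 5.09 to 18.5 in TLS (2.18 ± 0.40, 0.00334).

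Of 8 genes of the tryptophan to NAD route, 3 were higher in kidney (Haao, Afmid and Qprt) and 5 did not pass (median 1.32), while with the block 5 of the 8 passed. Haao, which makes the precursor that Acmsd acts on, was at 27.8 to 124 in kidney and 10.2 to 27.3 in TLS (1.87 ± 0.51 SE, adjusted p = 0.0278 in limma). Qprt, a later enzyme of the route to NAD, was at 7.59 to 25.5 and 3.39 to 6.54 (1.40 ± 0.38, 0.0278). It had 12 reads over the TLS libraries. Its call was lost under 8 of 19 alternative settings, edgeR and DESeq2 included, and that of Haao under 6. Of 6 androgen-regulated kidney genes, 2 were higher in kidney (Cyp4b1 and Odc1) and 4 did not pass (median 1.02), and with the block 3 of the 6 passed. Odc1, the enzyme of polyamine synthesis, was at 107 to 183 in kidney, 54.5 to 65.3 in TLS and 36.9 to 50.7 in the lymph nodes.

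Of 14 further proximal tubule genes, 11 were higher in kidney and 3 did not pass (median 1.97), and with the block 13 of the 14 passed. The largest differences were those of Slc5a12, a lactate transporter (2.59 ± 0.53 SE, adjusted p = 0.00646 in limma), Slc22a8, an organic anion transporter (2.56 ± 0.33, 0.000351), and Slc5a2, the glucose transporter of the early proximal tubule (2.45 ± 0.35, 0.000616). Of 7 transcription factors, 1 was higher in kidney, and 2 with the block, against a background of 6.07% and 7.80%. Hnf4a, a regulator of proximal tubule maturation, was at 60.7 to 196 in kidney and 11.02 to 58.9 in TLS (2.19 ± 0.52, 0.0138), and it was highest in the kidney and in the TLS of H115. No gene of these 7 lists was called lower in kidney than in TLS.

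The second question was whether the proximal genes that remained in TLS set it apart from lymph node. All 9 genes were higher in TLS than in proteinuric lymph node by their group means, and 6 of the 9 passed (Lrp2, Dab2, Fbp1, G6pc, Miox and Kap; limma, background 8.87%). Lrp2, Cubn, Fbp1, G6pc, Miox and Acmsd, 6 of the 9, had no read in any of the 7 lymph node libraries. Taking 3 reads in the shallowest of the 3 proteinuric lymph node libraries as the limit, TLS was at least 36.4-fold higher for Miox, 28.9-fold for Fbp1, 11-fold for Lrp2, 5.66-fold for G6pc and 2.31-fold for Cubn. The H115 TLS carried much of this for 2 genes: without it the bound was 3.43-fold for Lrp2, and the TLS mean of Cubn (3.63) was under the limit. For Fbp1 it was then 19.2-fold. Without the H6 lymph node, the shallowest, each of these bounds was 1.53 times as high. For Acmsd the mean of TLS (4.20) was under that limit and no fold can be given. Kap had 1, 2 and 0 reads in the lymph nodes of H6, H20 and H117, and the ratio of TLS to lymph node reads was 3114 (95% exact interval 1065 to 15102), or 1823 without the H117 and 6034 without the H20 lymph node. Dab2 had 0, 1 and 1 reads there, with a ratio of 15 (3.86 to 129). The adjusted p was 1.83e-06 for Miox, 0.0158 for Lrp2, 0.111 for Cubn and 0.177 for Acmsd. Without the H6 TLS, Cubn (0.0427) and Acmsd (0.00634) passed too, and Lrp2 missed the threshold without the H20 (0.0512) or the H117 (0.0612) lymph node.

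Pck1 was the only one of the 9 genes with more than 4 reads in any lymph node library. Its values were 14.5, 33.2 and 7.28 in the proteinuric lymph nodes of H6, H20 and H117. In the antibody-positive lymph nodes they were 4.63, 17.1 and 62.0 in D10, D11 and L25, and in the young lymph node 24.2, from 26 reads. The TLS values of H6 and H20 (40.7 and 53.4) were thus close to the highest lymph node values, and the difference between TLS and proteinuric lymph node, 2.46 ± 0.85 (SE) on the log2 scale, had an adjusted p of 0.0970 in limma. Pck1 is known to work in fat cells as well as in kidney and liver. The summed value of 6 adipocyte genes was 63.1, 178 and 536 in the lymph nodes of H117, H6 and H20, 177, 601 and 1470 in those of D10, D11 and L25, and 435 in the young one. The lymph node with the highest sum, L25, also had the most Pck1, and the 3 with the lowest sums (H117, D10 and H6) the least. The order did not hold throughout. D11 (sum 601) had less Pck1 than H20 (536) and the young lymph node (435), and D10 (177) less than H117 (63.1). In kidney the sum was 5.06 to 10.7 with 5 of the 6 genes at 0 reads, and in TLS 5.94, 248 and 9.81 in H6, H20 and H115. The part of adipose tissue in the Pck1 values was not tested.

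**Figure D5:**
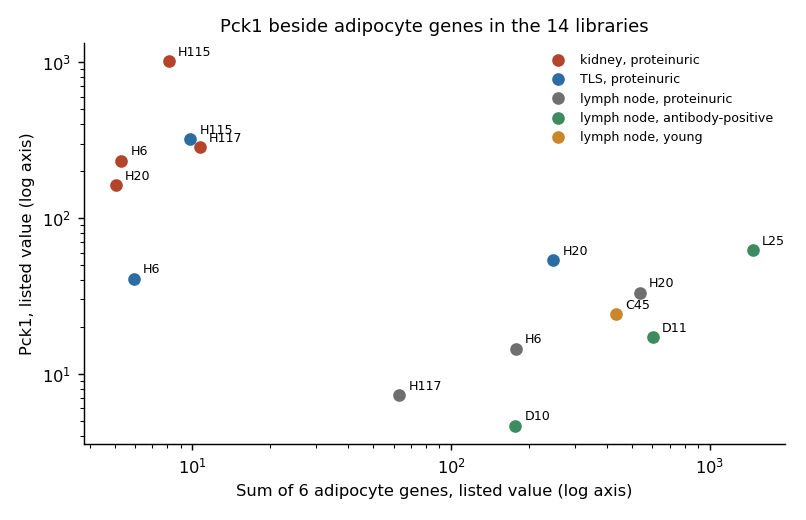
Pck1 against the summed value of 6 adipocyte genes (listed values, both axes logarithmic) in the 14 libraries, with the mouse beside each point. Among the 7 lymph nodes Pck1 is highest (62.0) where the sum is highest (1470), while the kidneys have the most Pck1 with sums of at most 10.7.

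In kidney against proteinuric lymph node, 9 of the 9 genes were higher in kidney (limma, background 23.0% of all genes called higher in kidney). The difference was at least 172-fold for Miox, 94.2-fold for Fbp1, 42.3-fold for Lrp2, 23.0-fold for G6pc, 7.74-fold for Cubn and 6.21-fold for Acmsd, by the same limit. From reads the ratio was 8795 (95% exact interval 3009 to 42652) for Kap, 50.6 (13.7 to 422) for Dab2 and 23.3 (17.6 to 31.4) for Pck1. Without the H115 kidney the bound was 20.4-fold for Lrp2 and 4.36-fold for Cubn and the ratio of Pck1 was 12.5. Without the H20 lymph node the ratio was 45.2 for Pck1 and 17044 for Kap, and without the H117 lymph node 5150 for Kap. As above, the bounds were 1.53 times as high without the H6 lymph node. This comparison shares its kidney and lymph node libraries with the 2 comparisons above.

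Between antibody-positive and proteinuric lymph nodes only Pck1 had a mean of at least 5 and was tested. The log2 difference was 0.18 ± 0.95 (SE) with an adjusted p of 0.998 in limma, so 0 of 1 passed, next to a background of 0% in either direction. The SE is large beside the difference, and changes of several-fold in either direction were not detectable here. Of 6810 genes tested, 215 had an unadjusted p under 0.05 in limma, and none passed the adjustment in limma or edgeR, while DESeq2 called 13. Dab2 had 4, 1 and 3 reads in D10, D11 and L25 and 0, 1 and 1 in H6, H20 and H117, and was not tested.

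The genes whose pattern over the 14 libraries was most like the mean of the 9 were Myo6, Pkd2 and Atp6v0a4 (Pearson r of 0.998, 0.997 and 0.997 on log2(value + 1) with each gene scaled to its own spread, among 7390 genes). Myo6 is the motor that carries endocytic vesicles, and it is also on the endocytosis list. The single closest gene was Spink3 for Miox (r = 0.998) and Kap (0.996), Gss for Lrp2 (0.997), Slc5a11 for Cubn (0.997), Nat8 for Acmsd (0.991), Apmap for Pck1 (0.982) and Mfn1 for Dab2 (0.972). These values are high for any gene present in kidney and absent from lymph node, since the libraries share that contrast, and they are given as a description. Each of the 9 genes had an r between 0.920 and 0.995 with the mean of the 9.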

How the data were processed

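RNA of 14 libraries was analysed, and 15 whole kidney samples of the series were not analysed here. According to the study's methods, the authors made libraries of poly(A) RNA for an Ion Torrent PGM. Mapping to GRCm38 and gene counting were done in CLC Genomics Workbench at its defaults, and whether counting used strand is not given in the sources used here. The deposited signal of a gene equals its reads after adding 1, over the library's size factor. Multiplied by that factor, 100% of the values came out whole (tolerance 1e-06), which gave the reads back.

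The 10 libraries of proteinuric mice were fitted together with limma 3.58.1 in R 4.3.3 (trend and robust moderation) on log2(value + 1), keeping 7382 genes by a minimum mean of 5. The antibody-positive and proteinuric lymph nodes were fitted apart (6810 genes). A gene was called at a Benjamini-Hochberg adjusted p under 0.05. A fold change on this scale understates that of low genes. Gene positions and exon lengths come from GENCODE M21. Exons of Cubn, Dab2 and Acmsd overlap genes of the opposite strand by 2.46%, 2.87% and 3.32% of their length, so reads of these stretches are uncertain. Replicates are separate mice with 1 library per tissue, and p-values measure the spread between these libraries.

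The genes, the lists of pathway and marker genes and the tests were chosen with earlier results of these data known. Of each pathway list, up to 3 genes with the largest log2 difference of kidney over TLS among those called were named, and of the likeness ranking the 3 closest genes and the closest of each member, except that some genes these rules name are not reported here. Myo6, Lrpap1 and Akr1a1 were named after their values were seen.

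Kidney and TLS came from the same organ, so the mouse number pairs them. Deviations from the tissue means correlated across genes by 0.351, 0.364 and 0.454 in the 3 pairs of one mouse, while the 9 pairings across mice had a median of -0.239 and spanned -0.498 to 0.361. Deviations from a mean cancel within a tissue, which draws pairings across mice towards negative values, so these are no independent baseline. The H117 kidney with the H115 TLS (0.361) exceeded the pair of mouse H6 (0.351). The alternatives were edgeR 4.0.16 (quasi-likelihood, TMM) and DESeq2 1.42.0 (Wald) on recovered reads, other pseudocounts and filters, the mouse as a replicate block, fewer tissues or libraries, and other scalings and references for the shares. The count tests called 830 (edgeR) and 978 (DESeq2) genes between kidney and TLS, against 1084 in limma. Leaving out both libraries of mouse H115, and each library in turn for the bounds against lymph node, was added after seeing the data. The fits were tested on simulated data with known changes. Intervals and limits cover counting error only.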

Additional observations from a re-analysis of the deposited data

Results flagged for a closer look

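Among the 4 kidney libraries, the H115 kidney stood apart from the other 3 for 4 of the 9 genes by Dixon's test at the 95% level, with a value of 77.7 for Cubn, 727 for Fbp1, 1019 for Pck1 and 165 for G6pc. Chance alone gives such a result in about 1 of 20 groups, and the 4 values come from 1 library. The test was run on these 9 genes only, so the share of all genes that would pass it is not known. Lrp2, with a gap of 0.804 of the range, did not pass. The young lymph node library, which no comparison used, held 26 reads of Pck1, above the 3 reads taken as the limit. Its adipocyte sum was 435, and the part of adipose tissue in this value was not tested.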

How the results depend on the processing

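The direction of all 9 genes held between kidney and TLS, TLS and lymph node, and kidney and lymph node under every alternative that was run. All members tested passed between kidney and lymph node throughout (9 of 9, and 6 of 6 with a mean of at least 20). Between kidney and TLS 5 of 9 passed. With edgeR's quasi-likelihood test 3 passed (169 of 7382 genes called higher in kidney), as with only the 2 tissues compared (333 of 7188). With a mean of at least 20, 3 of the 6 tested passed (220 of 2418). Cubn, Dab2 and Acmsd fall under that filter. With the mouse as a replicate block 8 passed, and the block changed no call of a member in the other comparisons. Leaving out 1 library gave between 3 and 9, while between 146 of 7398 and 634 of 7372 genes were called higher in kidney. Leaving out both H115 libraries gave 7 (410 of 7290). The causes of these changes were not tested. Between TLS and lymph node 5 to 9 passed, and 750 of 7382 genes were called higher in TLS where 9 did (DESeq2). Where 5 of 9 did, the count was 464 of 7382 (pseudocount 5), 499 of 7329 (without the H20 lymph node) or 445 of 7325 (without H117).

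In edgeR, where the TMM scaling and the count model changed together, the median log2 difference of all genes between kidney and TLS was -0.11, against 0.01 in limma. Of all genes called there, 448 were higher and 636 lower in kidney (41.3% higher), 169 and 661 with edgeR (20.4%), 305 and 673 with DESeq2 (31.2%), and 220 and 346 with a mean of at least 20. Without the H6 TLS the counts were 146 and 384, without the H115 kidney 211 were higher and without the H20 TLS 252. Of genes lower in TLS than in lymph node, 125 in the main fit, counts ran from 22 (a mean of at least 20) to 246 (without the H6 TLS). For genes higher in TLS they were 655, and 293 with a mean of at least 20 or 429 with only 2 tissues. Between kidney and lymph node 1698 and 1532 became 646 and 638 with a mean of at least 20. Between lymph nodes 0 became 13 with DESeq2, 8 with no filter and 5 without D11.

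The median share of kidney moved past 1 SD with the kidney of the same mouse as reference, to 13.7% (H6), 34.9% (H20) and 29.0% (H115). This SD is that of the median share over the 4 kidneys, each taken singly as reference. It was 5.80, 7.09 and 21.5 points in H6, H20 and H115, and is not the SD between TLS libraries given above. Without the H115 kidney the H6 share was 13.4%. The differences from thick limb genes ran from 16.1 to 45.1 points and from distal genes from 10.6 to 31.2, without a change of direction. The difference of Pck1 between lymph nodes reversed without the H117 (-0.31) or the L25 (-0.70) library, and ran from -0.70 to 1.05 over the libraries left out. Of 17 list genes named, 11 missed the threshold under at least 1 of 19 alternatives and none reversed. Qprt missed it under 8, Pdzk1 under 7, and Haao and Odc1 under 6 each. Depth limits Cubn, Dab2 and Acmsd, with at most 20 reads in any TLS library.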
